A study of Mus musculus with 2 samples.

Results

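Fibroblasts with the highest score over 6 genes were described among reporter-positive heart cells of old mice. The genes include Pi16 and Dpp4, which mark adventitial-type fibroblasts in mouse tissues. Members were chosen by a score. Each of Pi16, Dpp4, Cd248, Sema3c, Efhd1 and Adgrd1 was turned into a z-score over all 1145 fibroblasts, and the 90 fibroblasts with the highest mean z were taken. Fibroblasts were the cells whose mean value of Dcn, Col1a2, Lum and Col3a1 was at least 1.5 and above their mean of the macrophage genes Lyz2, C1qa, C1qb and Fcer1g. The 90 members stood among 1426 cells in all, and the comparison was with the other 1055 fibroblasts.

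The cells came from hearts of C57BL/6 mice aged 20 to 22 months that carry the p16-FDR allele, a reporter at p16 made of the FLP recombinase and a diphtheria toxin receptor joined to the red protein mCherry. All cells were sorted for mCherry, so every member and every other fibroblast passed the same gate, and no cells outside that gate were used here. The labels give 2 samples of 1 group, with no treatment and no comparison group. Droplet single-cell RNA sequencing read the 3' ends of transcripts and counted unique molecular identifiers (UMIs), each standing for 1 captured RNA molecule. The cells fall into 2 libraries, called Heart1 and Heart2 here, and nothing in the labels says which sample record each one is or whether each came from separate animals.

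Adventitial fibroblasts lie in the outer sheath of larger vessels and in related connective tissue layers, where they make a loose matrix. In mouse tissues, cells with Pi16 and Dpp4 form a widely shared fibroblast state that also carries Cd34, Ly6a and Ly6c1. It is set apart from fibroblasts that sit between muscle cells and build collagen and basement membrane. Hyaluronan, a main filler of loose connective tissue, is a chain of sugars built at the cell surface from UDP-sugars by the hyaluronan synthases.

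In Heart1, 11 of 206 fibroblasts were members, which is 5.34% (exact binomial 95% interval 2.70 to 9.35%). In Heart2, 79 of 939 fibroblasts were members, which is 8.41% (6.72 to 10.4%). The intervals overlap, and the shares follow from a fixed number of 90, so no test was made. The libraries shared 0 cell barcodes.

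Members held 150864 UMIs in Heart1 and 843352 in Heart2, against 2578226 and 7610318 in the other fibroblasts. The median cell had 13743 and 9973 UMIs among members of Heart1 and Heart2, against 11829 and 8604.5 among other fibroblasts, so members were somewhat deeper in both libraries. The median share of mitochondrial UMIs was 3.24 and 4.77% in members, against 3.41 and 5.19% in other fibroblasts. Doublet prediction marked 0 members, and 1 other fibroblast in each library. Intervals on levels and shares cover counting error only.

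The levels of the 6 genes chose the members, so they are given as a description with no test. Levels are in CPM, the UMIs of a gene scaled to a total of 1000000 over a set of cells of 1 library. Pi16, a secreted peptidase inhibitor, stood at 6284 CPM in members of Heart1 and 5358 CPM in members of Heart2, against 1344 and 1175 CPM in other fibroblasts. A Pi16 UMI was present in 10 of 11 and 79 of 79 members, and also in 90.3% of other fibroblasts of each library. Pi16 RNA was therefore common to these sorted fibroblasts, and members were the high end of its range. Dpp4, a surface peptidase that trims chemokines and peptide hormones, was a sparser gene. It had 86.2 and 125 CPM in members, against 1.94 and 7.49 CPM in other fibroblasts. A Dpp4 UMI was seen in 3 of 11 and 52 of 79 members. Of the 13 Dpp4 UMIs in Heart1 members, 11 lay in 1 cell, and the other 10 members of Heart1 had 15.3 CPM.

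Cd248, which encodes the stromal membrane glycoprotein endosialin, had 557 and 599 CPM in members and 62.4 and 59.5 CPM in other fibroblasts. Sema3c, a secreted semaphorin, had 265 and 279 CPM in members and 29.1 and 17.6 CPM in other fibroblasts. The calcium-binding gene Efhd1 had 292 and 275 CPM in members, against 22.9 and 26.4 CPM in other fibroblasts. Adgrd1, an adhesion-type receptor, had 205 and 215 CPM in members, against 14.4 and 23.7 CPM in other fibroblasts. Of the 90 members, 39 held a UMI of all 6 genes, 31 of 5, 17 of 4 and 3 of 3. The threshold fell within a continuous range, where the 90th cell had a mean z of 1.10 and the 91st had 1.09. Their Pi16 counts were 13 and 20 UMIs, and their Dpp4 counts 1 and 0.

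Whether the markers occur in the same cells was looked at by leaving 1 gene out in turn and choosing 90 cells by the other 5. These choices shared 77 to 85 cells with the members. Pi16 was at 6284 and 5113 CPM in cells chosen without it in Heart1 and Heart2, against 1344 and 1201 CPM in the rest. Cd248 was at 501 and 544 CPM in cells chosen without it, against 62.9 and 67.8 CPM. Sema3c was at 246 and 247 CPM, against 29.2 and 21.5 CPM. Each of these genes was thus high in cells that its own level had not chosen, in both libraries. Efhd1 stood at 255 and 242 CPM, against 23.8 and 31.0 CPM. For Adgrd1 the levels were 187 and 172 CPM, against 14.4 and 28.9 CPM. Dpp4 was at 98.8 CPM, against 10.1 CPM, in Heart2. In Heart1 only 2 Dpp4 UMIs fell in the 11 cells chosen without it (13.7 CPM, 95% interval 1.66 to 49.5, against 6.19 CPM), so a difference was not detectable at that depth.

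All 6 fixed fibroblast markers were present in members. Their summed level was 14947 and 21330 CPM in members of Heart1 and Heart2, against 27218 and 28481 CPM in other fibroblasts. T cell markers (6 genes) had 0 UMIs in members, and lymphatic endothelial markers (5 genes) had 0 and 1 UMIs. Of 6 vascular endothelial markers, 1 and 3 had a UMI in members, with Cldn5 and Egfl7 at 0, and they summed to 13.3 and 30.8 CPM, against 27.9 and 17.6 CPM in other fibroblasts. Of 7 macrophage markers, 1 and 6 had a UMI in members, and they summed to 13.3 and 23.7 CPM, against 83.8 and 17.5 CPM in other fibroblasts. In the other fibroblasts of Heart1, 192 of these 216 UMIs lay in 1 cell, so that level does not describe the rest. A UMI of the 4 macrophage genes of the rule was present in 9.09 and 20.3% of members, against 9.23 and 10.8% of other fibroblasts. Smooth muscle and pericyte markers summed to 524 and 46.2 CPM in members, against 124 and 74.6 CPM. Of the 79 such UMIs in Heart1 members, 69 lay in 1 cell.

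That cell stands apart. It is a Heart1 member with 19741 UMIs that holds all 7 Wt1 UMIs of the members. Wt1 is a transcription factor of epicardial and mesothelial cells, and the other 7 fixed markers of those cells have no row in the table used here, so no cell type name is given. It also held 67 Acta2 UMIs, 67 Tagln UMIs and 36 Gpm6a UMIs, where the other 10 Heart1 members together held 5, 1 and 0. The same cell held 11 of the 13 Dpp4 UMIs of Heart1 members. It had no UMI of Pi16 or Efhd1, and the other 10 Heart1 members held all 948 and 44. UMIs of the remaining genes of the rule were present in it. All 433 Ly6a and 69 Ly6c1 UMIs of Heart1 members also lay in those 10 members. Of the 287 Cd34 and 105 Cd55 UMIs, 280 and 102 lay there, and the rest in this cell. Calls of named genes that are lost without it are stated beside those genes or beside the counts of their lists.

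Members were then compared with the other fibroblasts within each library on all genes outside the 6. UMIs were summed per library and set, and limma was fitted to log2(CPM + 5) with library as a block. Adjusted p-values are Benjamini-Hochberg values over the 8544 genes with a mean of at least 10 CPM, and a gene was called at an adjusted p under 0.05. Fold changes on this scale understate the change of low genes. The fit leaves 1 residual degree of freedom and borrows 171 from the spread of other genes, so standard errors (SE) and p-values rest mostly on spread pooled over genes. Because a score of 6 genes picked the cells, any gene that goes with those genes from cell to cell differs in this contrast.

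At this threshold 232 genes were higher in members (2.72% of those tested) and 289 were lower (3.38%), so 6.1% were called in either direction. Of these, 226 and 281 went the same way in both libraries. Without the cells with at least 3 Wt1 UMIs the counts were 190 higher and 230 lower, and 397 of those 420 calls were among the first 521. The median log2 difference over all tested genes was -0.01. Counts for each gene list below stand beside these shares of 2.72% higher and 3.38% lower. Without the library block the fit called 0 genes, with 261 higher and 234 lower at an unadjusted p under 0.05.

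**Figure D1:**
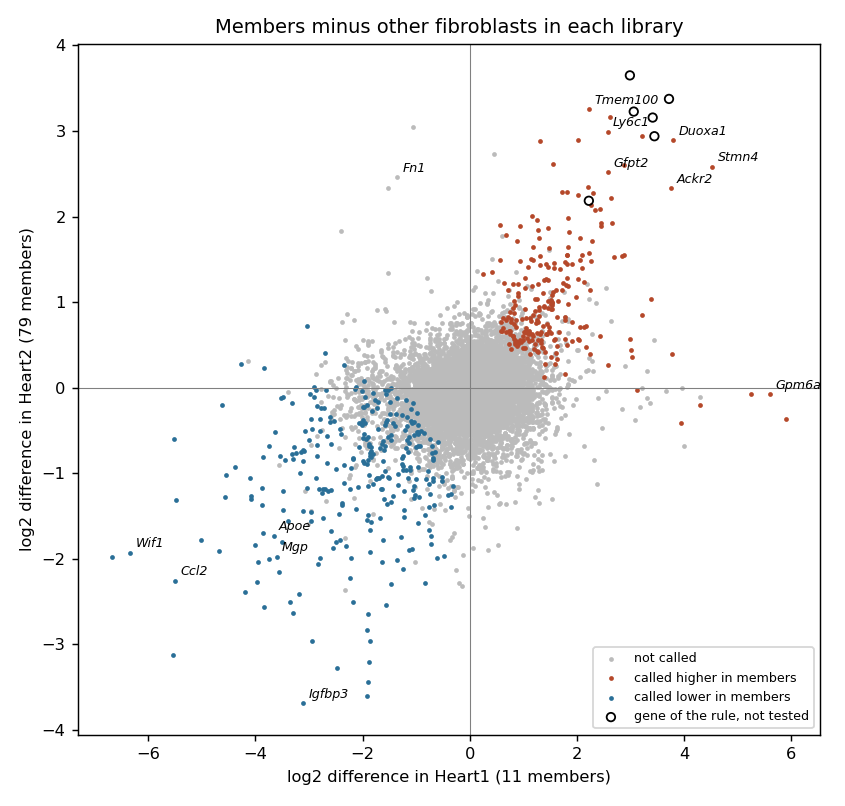
Log2 difference of (CPM + 5), members minus other fibroblasts, for every tested gene in Heart1 (horizontal axis, 11 members) and Heart2 (vertical axis, 79 members). Called genes (232 higher in red, 289 lower in blue) lie mostly in the corners where both libraries have the same sign, open circles are the 6 genes of the rule, and genes near the horizontal line, such as Gpm6a, differ in Heart1 with little difference in Heart2.

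Most other genes listed for the shared adventitial state were higher in members. Of 30 listed genes outside the rule, 29 passed the filter on low values, 22 were called higher (20 without the Wt1 cell) and 0 lower, where 2.72% of all tested genes were called higher. Their median log2 difference was 1.35, against -0.01 over all tested genes. The list was drawn up with earlier results of these data known, so its direction is not independent evidence.

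Ly6c1, a Ly6 surface antigen, stood at 457 CPM in members of Heart1 and 455 CPM in members of Heart2, against 72.9 and 52.8 CPM in other fibroblasts. Both member values lay above both values of the other fibroblasts. The log2 difference was 2.78 ± 0.23 (SE, limma adjusted p = 3.1e-22). Ly6a, which encodes the stem cell antigen Sca-1, had 2870 and 2349 CPM in members, against 792 and 661 CPM in other fibroblasts (log2 difference 1.84 ± 0.19, adjusted p = 6.1e-15). Ly6 genes have near-identical relatives, so reads may be split between them. Cd34, a sialomucin of stromal progenitors and vessels, had 1902 and 2070 CPM in members and 709 and 853 CPM in other fibroblasts (1.35 ± 0.19, adjusted p = 7.7e-09). Cd55, which shields cells from complement, had 696 and 764 CPM in members, against 123 and 202 CPM (2.17 ± 0.21, adjusted p = 1.4e-17).

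Scara5, a ferritin receptor, had 391 and 568 CPM in members, against 56.2 and 194 CPM in other fibroblasts. Its log2 difference was 2.11 ± 0.22 (adjusted p = 4.0e-15). Limch1, a regulator of actomyosin, had 219 and 101 CPM in members, against 71.4 and 12.4 CPM (2.08 ± 0.27). Igfbp6, a binding protein for IGF-2, had 2433 and 1551 CPM in members, against 982 and 570 CPM (1.37 ± 0.19). Each of the 3 was higher in members of both libraries. Anxa3, an annexin, had 477 and 483 CPM in members, against 171 and 128 CPM (1.66 ± 0.21). Macrophages of these libraries also carry Anxa3, with a UMI in 62.2 and 68.1% of them, and the part of macrophage RNA in its difference was not tested.

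Smaller differences were called for Heg1 (log2 difference 0.997), Tppp3 (0.88) and Tnxb (0.67). Cmah, an enzyme that modifies sialic acid, was a low gene at 19.9 and 37.9 CPM in members and 1.16 and 0.79 CPM in other fibroblasts. Its adjusted p was 0.0085, and 0.053 without the Wt1 cell. Il33, an alarmin cytokine, was at 312 and 77.1 CPM in members, against 116 and 70.3 CPM, so its difference came mainly from Heart1 (log2 differences 1.38 and 0.12). Its adjusted p was 0.041, and 0.073 without the Wt1 cell.

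Of the listed genes that were tested, 7 did not pass. Fn1, which encodes fibronectin, had opposite signs in the libraries, with 113 CPM in members against 296 CPM in other fibroblasts of Heart1, and 235 CPM against 38.6 CPM in Heart2. Dpt, Opcml and Dact2 had log2 differences of -0.34, -0.79 and 0.45 in Heart1 and of 0.75, 1.28 and 2.74 in Heart2. Efemp1 (0.38), Sfrp4 (0.50) and Aldh1a3 (0.93) had positive mean differences below the threshold, with limma adjusted p-values of 0.42, 0.87 and 0.062.

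**Figure D2:**
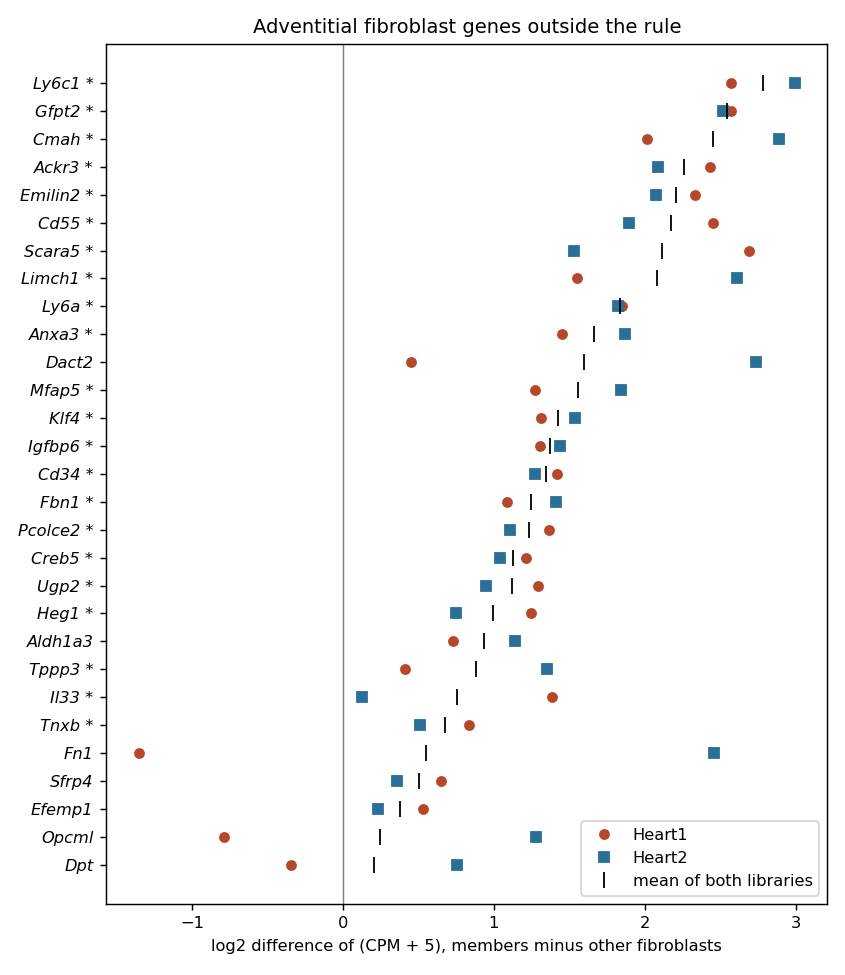
Log2 difference of (CPM + 5), members minus other fibroblasts, for the 29 tested genes of the adventitial list in Heart1 (circles) and Heart2 (squares), with the mean of both libraries as a bar. Asterisks mark the 22 called genes, all with positive values in both libraries, from Il33, Tnxb and Tppp3 at the low end to Ly6c1 with a mean of 2.78.

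Several genes that supply and build hyaluronan were higher in members. Of 14 tested genes of the hyaluronan and UDP-sugar list, 6 were higher (Has2, Vcan, Ugdh, Ugp2, Gfpt2, Uap1) and 1 lower (Itih5), and without the Wt1 cell the counts were 6 and 0. The list's median log2 difference was 0.24. Gfpt2, an enzyme for the entry step of the hexosamine pathway, had 716 and 518 CPM in members, against 116 and 86.2 CPM in other fibroblasts. Uap1, which makes UDP-N-acetylglucosamine, had 935 and 781 CPM in members, against 185 and 158 CPM. Both genes were several times higher in members of each library, with log2 differences of 2.55 ± 0.21 for Gfpt2 (adjusted p = 3.0e-21) and 2.29 ± 0.20 for Uap1 (adjusted p = 2.1e-19). Ugdh, which makes UDP-glucuronic acid, had 656 and 314 CPM in members, against 131 and 92.5 CPM (2.00 ± 0.22, adjusted p = 3.2e-14). Ugp2, which makes UDP-glucose, had 716 and 454 CPM in members, against 289 and 234 CPM (1.12 ± 0.20).

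Has2, a hyaluronan synthase, was a low gene with 53 and 45.1 CPM in members, against 19.4 and 7.88 CPM in other fibroblasts (1.60 ± 0.37, adjusted p = 8.8e-04). The hyaluronan-binding proteoglycan Vcan had 1054 and 466 CPM in members, against 534 and 265 CPM (0.89 ± 0.20, adjusted p = 6.0e-04). Itih5, an inter-alpha-trypsin inhibitor heavy chain, had 99.4 and 164 CPM in members, against 302 and 172 CPM, so its call came from Heart1. Another synthase, Has1, and Gfpt1, the relative of Gfpt2, did not pass, with log2 differences of 0.69 and 0.53 in Heart1 and of -0.67 and -0.47 in Heart2.

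Promoters of Gfpt2 and Uap1 are shown because both sugar enzymes were high together, chosen after their values were seen. The sequences are RefSeq windows on GRCm38.p6, from 250 bases before to 50 bases after the start, 5' to 3' on the gene's strand. Capitals mark exact matches, on either strand, to the GC box GGGCGG or the AP-1 site TGANTCA. The third motif searched was the TATA box TATAAA, and no marked matches overlap. Of 32851 promoter windows, 35.7% hold GGGCGG, 7.81% hold TGANTCA and 13.6% hold TATAAA. The window of Gfpt2 (chr11:49793905-49794204, plus strand) holds 2 GC boxes and 1 AP-1 match, and that of Uap1 (chr1:170174915-170175214, minus strand) holds 6 GC boxes. A match is a description of the letters and not a bound site.
Gfpt2: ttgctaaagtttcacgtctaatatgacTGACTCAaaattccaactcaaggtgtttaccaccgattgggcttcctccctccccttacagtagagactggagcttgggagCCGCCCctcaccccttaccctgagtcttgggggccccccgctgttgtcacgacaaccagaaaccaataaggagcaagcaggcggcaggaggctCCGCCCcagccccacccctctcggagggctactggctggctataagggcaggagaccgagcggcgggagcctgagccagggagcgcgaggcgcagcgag
Uap1: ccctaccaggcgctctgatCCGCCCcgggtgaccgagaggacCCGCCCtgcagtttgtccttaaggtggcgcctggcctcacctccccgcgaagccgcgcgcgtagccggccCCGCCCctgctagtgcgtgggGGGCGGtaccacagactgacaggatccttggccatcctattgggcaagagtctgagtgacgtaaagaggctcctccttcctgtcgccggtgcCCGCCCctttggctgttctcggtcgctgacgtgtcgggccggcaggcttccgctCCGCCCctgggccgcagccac

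Over all genes, those with the highest differences included several outside any list. Duoxa1, the maturation factor of the hydrogen peroxide-producing dual oxidases, had 252 and 103 CPM in members, against 13.6 and 9.59 CPM in other fibroblasts (log2 difference 3.34 ± 0.30, limma adjusted p = 3.3e-19). Its partner oxidase Duox1 had 66.3 and 54.5 CPM in members, against 2.71 and 2.76 CPM (3.07 ± 0.45, adjusted p = 1.5e-08). Both were high in members of each library and low in the other fibroblasts. A Duoxa1 UMI was present in 50% of members and 6.45% of other fibroblasts, and a Duox1 UMI in 34.4 and 1.90%.

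The genes are neighbours on chromosome 2 and are read away from each other, and their windows are shown for that reason, again chosen after their values were seen. In RefSeq on GRCm38.p6, Duoxa1 spans 122303540 to 122313763 on the minus strand and Duox1 spans 122313010 to 122347972 on the plus strand, so the spans overlap at their 5' ends, and the Duox1 window lies at a start inside the longer span. Whether counting used strand is not given in the sources used here, and a read inside the overlap could belong to either gene. The Duoxa1 window (chr2:122313681-122313980, minus strand) holds 3 GC boxes, and the Duox1 window (chr2:122315422-122315721, plus strand) holds none of the 3 motifs.
Duoxa1: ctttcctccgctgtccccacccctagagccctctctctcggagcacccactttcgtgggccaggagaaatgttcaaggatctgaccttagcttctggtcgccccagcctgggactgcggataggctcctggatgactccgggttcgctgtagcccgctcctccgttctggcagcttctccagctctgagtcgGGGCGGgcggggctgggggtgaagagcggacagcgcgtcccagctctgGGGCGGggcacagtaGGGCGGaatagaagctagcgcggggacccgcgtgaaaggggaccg
Duox1: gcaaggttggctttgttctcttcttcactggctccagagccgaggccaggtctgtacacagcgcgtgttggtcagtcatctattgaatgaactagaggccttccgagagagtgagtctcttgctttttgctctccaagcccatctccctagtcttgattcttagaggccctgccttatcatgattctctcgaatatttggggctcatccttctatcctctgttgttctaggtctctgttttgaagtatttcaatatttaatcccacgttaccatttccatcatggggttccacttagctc

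The scavenging receptors Ackr2 and Ackr3 were higher in members, and 8 chemokine and cytokine genes were lower. Of 15 tested chemokine and cytokine genes, 3 were higher (Ackr2, Ackr3 and Il33) and 8 were lower, and without the Wt1 cell the counts were 2 and 8. Ackr3, a scavenging receptor for the chemokine CXCL12, had 716 and 947 CPM in members, against 128 and 220 CPM in other fibroblasts (2.26 ± 0.20, adjusted p = 5.1e-19). Ackr2, which takes up inflammatory CC chemokines, had 146 and 43.9 CPM in members, against 6.21 and 4.73 CPM (3.04 ± 0.38, adjusted p = 2.6e-11). An Ackr3 UMI was present in 95.6% of members and 55.5% of other fibroblasts, and an Ackr2 UMI in 31.1 and 2.94%. Another scavenging receptor, Ackr4, did not pass (log2 differences -0.57 and -0.74, limma adjusted p = 0.37).

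Ccl2, a monocyte attractant, had 0 and 42.7 CPM in members, against 221 and 223 CPM in other fibroblasts (-3.88 ± 0.31, adjusted p = 2.5e-22). A Ccl2 UMI was present in only 2.22% of members and 9.86% of other fibroblasts, so few cells carried these levels. Of its 36 UMIs in Heart2 members, 35 lay in 1 cell. Its relative Ccl7 had 0 and 27.3 CPM in members, against 67.9 and 99.6 CPM (-2.78 ± 0.36). It was likewise sparse, with a UMI in 3.33% of members and 10.0% of other fibroblasts, and 1 cell held 15 of its 23 Heart2 member UMIs. Cxcl14 had 152 and 734 CPM in members, against 917 and 2704 CPM (-2.21 ± 0.20, adjusted p = 2.2e-19). All member values of these genes lay below those of the other fibroblasts of the same library. Cxcl12, the ligand of Ackr3, had 19.9 and 70.0 CPM in members, against 84.2 and 126 CPM (-1.32 ± 0.28). The remaining called chemokines were Ccl11, Cxcl1, Cxcl16 and Cx3cl1, with log2 differences of -2.0, -2.10, -1.15 and -1.89.

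Further genes among the 15 with the highest differences encode proteins of varied function. Stmn4, a stathmin that binds tubulin and is best known from neurons, had 172 and 48.6 CPM in members, against 2.71 and 3.94 CPM in other fibroblasts (3.55 ± 0.39, adjusted p = 7.2e-14). Tmem100, a transmembrane protein studied in developing vessels, had 809 and 441 CPM in members, against 169 and 41.8 CPM (2.74 ± 0.22, adjusted p = 1.7e-22). Mustn1, named for its expression in muscle and skeleton, had 239 and 145 CPM in members, against 28.3 and 19.6 CPM (2.74 ± 0.27). These were higher in members of both libraries. Lrrn4cl had 166 and 178 CPM in members, against 22.5 and 34.4 CPM (2.42 ± 0.27). Chst1, a sulfotransferase acting on keratan sulfate, had 86.2 and 66.4 CPM in members, against 7.37 and 19.4 CPM (2.21 ± 0.34). Nhsl1 was at 53 and 43.9 CPM in members, against 4.27 and 7.88 CPM (2.29 ± 0.43).

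Basp1, a membrane-attached signalling protein, had 133 and 194 CPM in members, against 17.5 and 17.2 CPM in other fibroblasts (2.89 ± 0.29, adjusted p = 1.4e-16). Of its 20 UMIs in Heart1 members, 13 lay in the Wt1 cell, and without that cell the difference was 2.27. Macrophages carry it too, with a UMI in 73.0 and 54.3% of the 37 and 210 macrophages, and the part of macrophage RNA in its difference was not tested. Of other genes called higher and named here, Emilin2, Ifi27l2a, Tppp3, Creb5, Ugp2, Klf4, Ugdh, Uap1, Ccng1 and Cmah had a UMI in 10.8 to 97.3% of Heart1 macrophages and 21.4 to 96.2% of Heart2 macrophages, and that part was not tested for them either. Ly6c1, Duoxa1, Stmn4 and Tmem100 had a UMI in at most 0.48% of macrophages of either library, whose median depths were 8133 and 9642 UMIs.

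These genes were unevenly shared among members. Over Ly6c1, Duoxa1, Duox1, Stmn4, Ackr2, Basp1 and Tmem100, a set of 7 chosen after their values were seen, 1 member had none, 11 had 1, 19 had 2, 17 had 3, 13 had 4, 16 had 5, 9 had 6 and 4 had 7. Among other fibroblasts, 61.0% had none and 0 of 1055 had 6 or 7, which allows a share of up to 0.284%. With each cell thinned to 3000 UMIs, 29 of 90 members (32.2%) and 5 of 1055 other fibroblasts (0.474%) had at least 3.

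Levels of Ly6c1 and Mgp in Heart2 changed by degrees along the ranking of all fibroblasts. Ly6c1 in Heart2 was at 688 CPM in ranks 1 to 45, 240 CPM in ranks 46 to 90, 202 CPM in ranks 91 to 180, 89 CPM in ranks 181 to 360, 45.1 CPM in ranks 361 to 720 and 4.05 CPM below. Mgp ran the other way in Heart2, at 614, 2376, 3858, 5669, 6569 and 6272 CPM over the same ranges. In Heart1 Ly6c1 was at 443, 474, 233, 143, 59.2 and 8.90 CPM over these ranges, with 6 and 5 cells in the first pair. Stmn4 in Heart1 was at 237 CPM (95% interval 138 to 379) in ranks 46 to 90 and 8.61 CPM (1.04 to 31.1) in ranks 91 to 180.

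**Figure D3:**
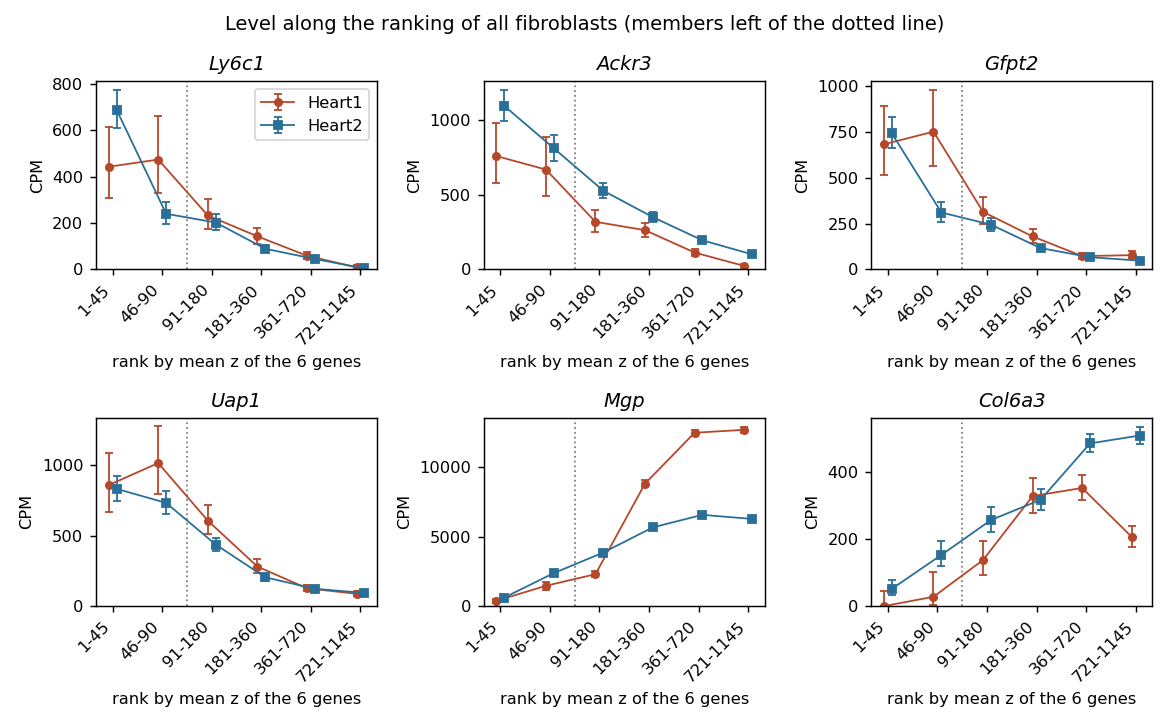
Level in CPM of 6 genes outside the rule over 6 ranges of the ranking by mean z, in Heart1 (circles) and Heart2 (squares), with exact Poisson 95% intervals that cover counting error only. Members are left of the dotted line. Ly6c1, Ackr3, Gfpt2 and Uap1 were highest in the member ranges, while Mgp and Col6a3 were lowest there, as in Heart2 where Mgp was at 614 CPM in ranks 1 to 45 and 6272 CPM in ranks 721 to 1145.

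Several collagen and proteoglycan genes were lower in members. Of 13 tested collagen genes, 6 were lower (5 without the Wt1 cell) and 1 was higher, and the list's median log2 difference was -0.72. Col6a3, a chain of the microfibrillar collagen VI, had 13.3 and 104 CPM in members, against 278 and 442 CPM in other fibroblasts (-2.99 ± 0.25, adjusted p = 2.8e-21). Col5a3 had 0 and 133 CPM in members, against 114 and 329 CPM (-2.92 ± 0.30). Col6a6 had 0 and 34.4 CPM in members, against 33.7 and 103 CPM (-2.20 ± 0.38). The main fibrillar collagens differed less. Col1a1 had 756 and 770 CPM in members, against 1551 and 1130 CPM (-0.79 ± 0.19, adjusted p = 0.0023), and Col3a1 had 981 and 1440 CPM, against 1923 and 2062 CPM (-0.74 ± 0.19). Col3a1 was among the genes that defined fibroblasts. Col14a1, a fibril-associated collagen, was the gene called higher, at 146 and 248 CPM in members, against 122 and 96.1 CPM (0.78 ± 0.24, adjusted p = 0.021).

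Small leucine-rich proteoglycans, which bind collagen fibrils, gave 0 higher and 5 lower of 10 tested (4 lower without the Wt1 cell). Bgn had 2671 and 1674 CPM in members, against 4588 and 3300 CPM in other fibroblasts (-0.88 ± 0.20). Podn had 19.9 and 41.5 CPM in members, against 43.1 and 108 CPM (-1.11 ± 0.30). Fmod had 13.3 and 17.8 CPM in members, against 129 and 18.3 CPM, so its call came from Heart1. All 15 Fmod UMIs of Heart2 members lay in 1 cell, so that level does not describe the rest. The 2 Fmod UMIs of Heart1 members lay in the Wt1 cell. Of 14 tested genes of the Col15a1-type and basement membrane list, 0 were higher and 5 lower, and 3 were lower without the Wt1 cell. Penk, the precursor of enkephalins, had 0 and 124 CPM in members, against 112 and 257 CPM (-2.78 ± 0.31). Col4a2 had 152 and 96.0 CPM in members, against 197 and 234 CPM (-0.80 ± 0.23). Nid2 was at 13.3 and 28.5 CPM in members, against 32.6 and 69.2 CPM, with an adjusted p of 0.030 that was 0.088 without the Wt1 cell.

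Elastic fibre genes split in both directions, with 5 higher and 7 lower of 21 tested (5 and 6 without the Wt1 cell). The microfibril genes Mfap5 and Fbn1 were on the higher side. Mfap5 had 4070 and 2588 CPM in members, against 1679 and 719 CPM in other fibroblasts (1.56 ± 0.20, adjusted p = 3.5e-11). Fbn1, which encodes fibrillin-1, had 709 and 707 CPM in members, against 332 and 263 CPM (1.25 ± 0.20). Emilin2, a glycoprotein at the surface of elastin, had 126 and 162 CPM in members, against 20.9 and 34.7 CPM (2.21 ± 0.28). Fbln2 and Fstl1 were higher by log2 differences of 0.94 and 0.87. On the lower side, Mfap4 had 39.8 and 273 CPM in members, against 767 and 571 CPM (-2.58 ± 0.24, adjusted p = 4.6e-18). Mfap2 had 0 and 43.9 CPM in members, against 67.1 and 80.4 CPM (-2.33 ± 0.37). Eln, Emilin1, Fbln1, Fbln5 and Lox were also lower, with log2 differences of -0.88, -1.34, -0.64, -1.46 and -1.28, and Fbln1 was not called without the Wt1 cell (adjusted p = 0.12).

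Among proteases and their inhibitors, 3 of 20 tested were higher and 4 lower (3 and 3 without the Wt1 cell). Adamts5, which cuts versican and aggrecan, had 822 and 1173 CPM in members, against 283 and 591 CPM in other fibroblasts (1.25 ± 0.20, adjusted p = 1.8e-07). Pcolce2, an enhancer of procollagen C-terminal cleavage, had 1094 and 908 CPM in members, against 422 and 420 CPM (1.23 ± 0.20). Timp2, a metalloproteinase inhibitor, had 1929 and 1959 CPM in members, against 1081 and 966 CPM (0.92 ± 0.19). Mmp3, stromelysin 1, had 6.63 and 49.8 CPM in members, against 371 and 183 CPM (-3.40 ± 0.29, adjusted p = 1.3e-20). Of its 42 UMIs in Heart2 members, 32 lay in 1 cell.

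Genes of cardiac interstitial fibroblasts were mostly lower. Of 18 tested, 10 were lower (11 without the Wt1 cell) and 1 was higher (0 without it), with a median log2 difference of -0.87. Apoe, an apolipoprotein, had 431 and 2031 CPM in members, against 5493 and 6746 CPM in other fibroblasts (-2.69 ± 0.21, adjusted p = 2.0e-23). Adamtsl2, an extracellular glycoprotein, had 13.3 and 8.30 CPM in members, against 124 and 50.5 CPM (-2.44 ± 0.34). Hsd11b1, which activates glucocorticoids, had 33.1 and 175 CPM in members, against 184 and 645 CPM (-2.08 ± 0.23). Rspo1, a Wnt agonist, was called higher at 66.3 and 35.6 CPM in members, against 3.88 and 25 CPM, and its adjusted p was 0.52 without the Wt1 cell.

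The lowest differences among genes detected in at least 25% of the other fibroblasts included secreted regulators. Mgp, matrix Gla protein, an inhibitor of calcification, had 895 and 1528 CPM in members, against 10944 and 6019 CPM in other fibroblasts (-2.79 ± 0.21, adjusted p = 8.6e-25). The heparin-binding growth factor Ptn had 0 and 53.4 CPM in members, against 220 and 140 CPM (-3.40 ± 0.33). Of the 45 Ptn UMIs in Heart2 members, 35 lay in 1 cell. Mdk, the relative of Ptn, had 0 and 5.93 CPM in members, against 86.5 and 52.0 CPM (-3.29 ± 0.45). All 3 were lower in members of each library. Adm, the vasodilator peptide adrenomedullin, had 0 and 27.3 CPM in members, against 53.9 and 138 CPM (-2.85 ± 0.35). Sept4, a septin, had 0 and 16.6 CPM in members, against 66.3 and 122 CPM (-3.20 ± 0.37). Tmem204 had 0 and 22.5 CPM in members, against 62.4 and 105 CPM (-2.88 ± 0.37). Cd82, a tetraspanin, had 0 UMIs in all members, against 33.4 and 33.9 CPM in other fibroblasts. With 3 UMIs per library as the limit, it was at least 1.68-fold lower in Heart1 and at least 9.53-fold lower in Heart2.

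Activated fibroblast and matrifibrocyte genes gave 10 lower and 2 higher of 16 tested, and 10 and 0 without the Wt1 cell. The genes called higher were Acta2 and Tagln, the contractile genes of the Wt1 cell. Acta2 had 477 and 33.2 CPM in members, against 41.5 and 13.7 CPM in other fibroblasts (log2 difference 2.20), and without that cell the difference was 0.47 (adjusted p = 0.71). For Tagln the difference was 0.98 with that cell and -1.61 without it (adjusted p = 0.028). Several of the lower genes were high in few cells of Heart1. Thbs4, a thrombospondin, had 6.63 and 73.5 CPM in members, against 525 and 114 CPM (-3.05 ± 0.32), although it was detected in 3.33% of members and 3.98% of other fibroblasts. Of its 62 UMIs in Heart2 members, 61 lay in 1 cell. Comp, cartilage oligomeric matrix protein, had 186 and 15.4 CPM in members, against 855 and 111 CPM (-2.34 ± 0.23), with a UMI in 8.89 and 13.0% of cells. Cilp was lower in Heart1 and not in Heart2 (log2 differences -3.84 and 0.23). Of the 142 Cilp UMIs in Heart2 members, 80 lay in 1 cell. A Cilp UMI was present in 8.86% of Heart2 members and 13.1% of other fibroblasts of Heart2.

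Cthrc1, a collagen triple helix repeat protein, had 0 UMIs in members, against 99.3 and 4.47 CPM, which is at least 4.99-fold and at least 1.26-fold lower. Tnc, tenascin C, had 1 UMI in all members, against 119 and 2.10 CPM in other fibroblasts of Heart1 and Heart2. Its adjusted p of 0.027 was 0.081 without the Wt1 cell. With Cthrc1 at its bound, the list's median log2 difference was -1.39, against -1.58 as fitted.

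Valve-type genes gave 4 lower and 1 higher (Prg4) of 9 tested. Wif1, a secreted Wnt inhibitor, had 0 UMIs in members, against 397 and 14.1 CPM in other fibroblasts, at least 20.0-fold lower in Heart1 and at least 3.95-fold lower in Heart2. Cytl1 had 113 and 15.4 CPM in members, against 607 and 47.7 CPM (-1.87 ± 0.26). Prg4, the lubricant proteoglycan 4, had 583 and 142 CPM in members, against 392 and 47.2 CPM (1.03 ± 0.22). Of 20 tested Wnt, BMP and TGF-beta modulators, 6 were lower and 1 (Rspo1) higher, and the counts were 5 and 0 without the Wt1 cell. Sfrp2 had 6.63 and 21.3 CPM in members, against 94.3 and 38.9 CPM (-1.92 ± 0.36). Wnt5a had 0 and 10.7 CPM in members, against 44.2 and 23 CPM (-2.07 ± 0.54). Frzb, a decoy for Wnt ligands, had 92.8 and 29.6 CPM in members, against 226 and 146 CPM (-1.68 ± 0.25).

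Of the IGF genes, Igfbp6 and Igfbp5 were higher and Igf1, Igfbp3 and Igfbp7 lower among 8 tested. Igfbp5 had a UMI in 21.1% of members and 19.1% of other fibroblasts, and single cells held 72 of its 94 member UMIs in Heart1 and 85 of 230 in Heart2. Igf1, the growth factor itself, had 53 and 158 CPM in members, against 257 and 282 CPM in other fibroblasts (-1.50 ± 0.23). Igfbp3 had 1 UMI in all members, against 667 UMIs in other fibroblasts, a CPM ratio of 0.0154 (exact 95% interval 0.00039 to 0.0859). Complement genes gave 2 higher and 2 lower of 9 tested, and 1 and 1 without the Wt1 cell. C4b had 26.5 and 80.6 CPM in members, against 274 and 139 CPM (-1.95 ± 0.27). C3 had 1206 and 2478 CPM in members, against 801 and 1452 CPM, with an adjusted p of 0.013 that was 0.63 without the Wt1 cell.

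Transcription factors differed in both directions, 3 higher and 4 lower of 27 tested (3 and 3 without the Wt1 cell). Klf4 had 723 and 566 CPM in members, against 288 and 192 CPM in other fibroblasts (1.43 ± 0.20, adjusted p = 6.0e-09). Creb5 had 166 and 158 CPM in members, against 68.7 and 74.2 CPM (1.13 ± 0.24), and Ebf1 had 603 and 945 CPM, against 295 and 419 CPM (1.09 ± 0.20). Foxs1 had 6.63 and 4.74 CPM in members, against 38.4 and 56.0 CPM (-2.27 ± 0.44). Meox1 had 113 and 86.6 CPM in members, against 548 and 203 CPM (-1.71 ± 0.23). The cardiac factor Tbx20 was lower too, at 172 and 114 CPM in members, against 352 and 244 CPM (-1.04 ± 0.22), as was Tcf4 (-0.61 ± 0.20), which was not called without the Wt1 cell.

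The smaller lists gave few calls, and over all tested genes 2.72% were called higher and 3.38% lower. Retinoid and steroid genes had 0 higher and 3 lower of 10, with Aldh1a1, which makes retinoic acid, at 219 and 164 CPM in members, against 274 and 368 CPM in other fibroblasts (-0.73 ± 0.22). Semaphorins and their receptors had 0 higher and 2 lower of 11 (1 without the Wt1 cell). Nrp1, a co-receptor for semaphorins and VEGF, had 39.8 and 62.8 CPM in members, against 108 and 145 CPM (-1.24 ± 0.26). Sema5a had 0 and 8.30 CPM, against 26.4 and 25.6 CPM, and its adjusted p was 0.062 without the Wt1 cell. Interferon genes had 1 higher and 0 lower of 12, which was Ifi27l2a at 3712 and 2384 CPM in members, against 1056 and 876 CPM (1.62 ± 0.19, adjusted p = 4.3e-12). MHC class I genes had 0 higher and 2 lower of 9 (H2-T23 and Psmb9), and 0 and 0 without the Wt1 cell. Only 2 proliferation genes passed the filter, and neither was called.

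**Figure D4:**
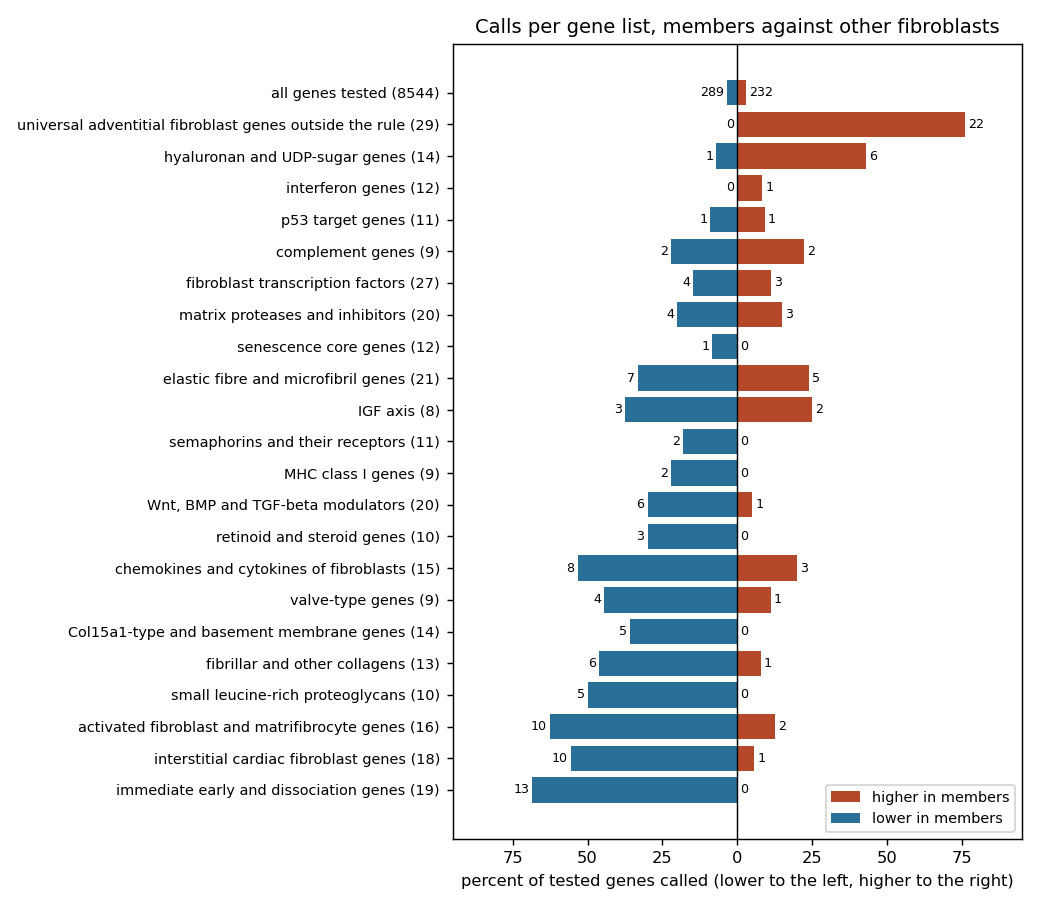
Percent of tested genes of each list called lower (blue, to the left) and higher (red, to the right) in members than in other fibroblasts, with the counts at the bar ends and the number tested in brackets, for lists with at least 8 tested genes. Of all tested genes 232 were higher and 289 lower; the adventitial list has 22 higher of 29, and the immediate early list has 13 lower of 19.

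Immediate early and dissociation genes, which are induced within minutes by stress and tissue digestion, were lower in members than in the other fibroblasts together. Of 19 tested, 13 were lower and 0 higher, and the counts were 13 and 0 without the Wt1 cell. The median log2 difference was -1.50. Fos had 53 and 40.3 CPM in members, against 928 and 156 CPM in other fibroblasts (-2.92 ± 0.25, adjusted p = 8.1e-21). Zfp36, which destabilizes cytokine mRNAs, had 13.3 and 20.2 CPM in members, against 263 and 51.6 CPM (-2.52 ± 0.32). Fosb had 2 UMIs in all members, against 302 in other fibroblasts, a CPM ratio of 0.0679 (exact 95% interval 0.00818 to 0.247). The differences were larger in Heart1 (list median -1.99) than in Heart2 (-0.77), and Fos and Zfp36 in other fibroblasts were several times higher in Heart1 than in Heart2. The part of this stress state in the other lower calls was not tested. The listed gene Btg2 was at 39.8 and 17.8 CPM in members, against 158 and 66.9 CPM (-1.76 ± 0.29).

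Senescence genes bear on the sort, which asks which heart cells use p16 late in life. Of 12 tested genes of the senescence core list, 0 were higher and 1 was lower in members. Over all tested genes 2.72% were higher and 3.38% lower, and no trait of members is read from so few calls. Cdkn2a, which encodes p16, had a UMI in 1 of 11 and 0 of 79 members, against 71 of 195 and 7 of 860 other fibroblasts. In shares that is 9.09% (exact 95% interval 0.23 to 41.3%) and 0% (upper limit 3.80% from 3 counts, exact upper bound 4.56%) in members, against 36.4% (29.7 to 43.6%) and 0.81% in other fibroblasts. The 5 Cdkn2a UMIs of the members all lay in the Wt1 cell. With cells thinned to 3000 UMIs the shares were 9.09 and 0% in members, against 16.9 and 0.35% in other fibroblasts. The limma difference was -0.90 ± 0.52 (adjusted p = 0.48), and -2.35 without the Wt1 cell (adjusted p = 0.14), so the test did not pass either way. The sort gate reads reporter protein, and the table used here has 0 rows for the reporter RNA.

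Cdkn1a, which encodes p21, had 252 and 143 CPM in members, against 233 and 152 CPM in other fibroblasts (0.01 ± 0.22, adjusted p = 1.0). Of its 38 UMIs in Heart1 members, 21 lay in the Wt1 cell, and without that cell the difference was -0.45 (adjusted p = 0.40). A Cdkn1a UMI was found in 7 of 11 and 37 of 79 members, against 93 of 195 and 237 of 860 other fibroblasts, and no order is read from these shares because the Heart2 levels do not follow them. Cdkn2b, which encodes p15, had 6.63 and 5.93 CPM in members, against 48.9 and 9.99 CPM (-1.33 ± 0.54, adjusted p = 0.17). Cdkn1c, which encodes p57, was the gene called lower, and its difference lay in Heart1, with 6.63 CPM in members against 69.8 CPM in other fibroblasts, while Heart2 had 92.5 CPM against 94.2 CPM (adjusted p = 8.9e-04).

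Cdkn1b, Cdkn2c, Cdkn2d, Rb1, Trp53, Glb1, Hmgb1 and Hmgb2 had mean log2 differences of 0.06, 0.17, -0.11, 0.03, -0.18, -0.17, -0.32 and 0.08, and none passed the limma test. Of 11 tested p53 target genes, 1 was higher and 1 (Btg2) lower, where 2.72 and 3.38% of all tested genes were. Ccng1, which encodes cyclin G1, had 106 and 54.5 CPM in members, against 36.8 and 39.7 CPM (0.91 ± 0.29), and its adjusted p of 0.035 was 0.63 without the Wt1 cell.

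Members were also set beside fibroblasts with high Hsd11b1 and Ccl11 and beside fibroblasts with high Inmt, Osr1 and Rspo1, each taken as the 90 fibroblasts with the highest mean z of those genes. They shared 3 cells (3.33% of each set) and 9 cells (10.0% of each) with the members. Only 4 and 6 cells of these sets were in Heart1, so no test was made there. With shared cells left out, 215 genes (2.55%) were at least 2-fold higher in members than in the Hsd11b1 and Ccl11 cells in both libraries, and 180 (2.14%) at least 2-fold lower. Against the Inmt, Osr1 and Rspo1 cells these counts were 194 (2.3%) and 183 (2.17%). Against all other fibroblasts, 95 genes (1.11%) were at least 2-fold higher and 126 (1.47%) at least 2-fold lower in both libraries.

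With the like sets chosen within each library, an alternative added after the cells had been counted, 11 and 77 members stood against 16 and 72 Hsd11b1 and Ccl11 cells. By limma 99 genes (1.16%) were higher and 76 (0.893%) lower in members. Duoxa1 had 38 and 77 UMIs in members and 0 in the set. Tmem100 had 809 and 443 CPM in members, against 28.4 and 6.90 CPM (4.92 ± 0.31, adjusted p = 7.1e-05). Mgll, a monoacylglycerol lipase, had 32 and 72 UMIs in members, against 0 and 2 in the set. Basp1 and Limch1 completed the 5 genes with the highest differences among those detected in at least 25% of the members. The 5 lowest among those detected in at least 25% of the set's cells were Ifitm1, Sept4, Blnk, Col5a3 and Col6a3. Ifitm1, an interferon-induced membrane protein, had 0 and 2 UMIs in members, against 18 and 131 in the set. Col6a3 had 13.3 and 103 CPM in members, against 562 and 599 CPM (-3.72 ± 0.47, adjusted p = 0.0021). Several genes called lower against all other fibroblasts were not called against this set, and examples were chosen after their values were seen. Fos, Zfp36, Btg2, Mfap4, Adamtsl2, C4b and Sfrp2 had limma adjusted p-values of 0.095, 0.77, 0.25, 0.93, 0.71, 0.56 and 0.99.

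Against Inmt, Osr1 and Rspo1 cells chosen within each library (9 and 71 members, 14 and 66 cells of the set), values are given without a test, since Heart1 held fewer than 10 members. With the same minimum of 25% of cells, Duoxa1, Stmn4, Duox1, Basp1 and Mgll had the highest differences. Stmn4 had 26 and 40 UMIs in members and 0 in the set, and Duox1 had 9 and 46 UMIs and 0 in the set. Wisp2, Tmem176b, Tmem176a, C4b and Gucy1a1 had the lowest. Wisp2, a matricellular CCN protein, had 7.96 and 5.25 CPM in members, against 503 and 327 CPM in the set. C4b had 31.8 and 27.6 CPM in members, against 655 and 557 CPM. Duoxa1, Basp1 and Mgll were thus among the 5 highest so chosen against both sets, and both comparisons use the same members. Fos, Zfp36, Btg2, Mfap4, Adamtsl2, C4b and Sfrp2 were at least 2-fold lower in members than in the Inmt, Osr1 and Rspo1 cells in both libraries.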

How the data were processed

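The deposited table holds natural log values of 1 plus UMIs per 10000 UMIs of a cell, for 15247 genes in 1426 cells; the unit was read from the values, which the authors deposited as one matrix. The submitters' processing notes name Cell Ranger 3.0.2 and mm10. How values were normalized and cells filtered is not given in the sources used here. Each of the 4459440 nonzero values was a whole multiple of its cell's smallest step (tolerance 1e-06), which gave back the UMIs, and 0 columns were left unused.

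UMIs were summed per library and set and compared with limma 3.58.1 (R 4.3.3) on log2(CPM + 5) with library as a block, a trend of variance on level, and Benjamini-Hochberg adjusted p-values over genes with a mean of at least 10 CPM. A set needed 10 cells in each library for a test. The fit was tested on simulated data, where its calls held more false ones than the nominal rate. No count model was run on the summed UMIs. P-values measure only how far the difference between sets varies from one library to the other, pooled largely over genes. That variation may be technical, and differences in level between the libraries are taken out by the block. Sample titles carry different numbers that the labels do not explain. What sets the 2 libraries apart, beyond being separate libraries, cannot be told from the labels.

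Scanpy 1.11.5 was used for doublet prediction, and doublets were kept. Counting used 3' ends, so levels are not corrected for length and are compared between cell sets, not between genes. Gene positions are from RefSeq on GRCm38.p6, and 15087 of 15247 symbols matched the gene name table. Members and lists were chosen with earlier results of these data known. Named are the rule's genes, every tested gene of the adventitial and senescence core lists, up to 3 called genes of each other list with the largest differences, the 15 highest and 10 lowest called genes that went the same way in both libraries and had a UMI in at least 25% of the cells where they were higher, and the 5 highest and lowest against each like set with the same limits. Of the genes so named, 1 is left out of the text. Other called list members were named after their values were seen. Alternatives changed the pseudocount (1 or 20), the filter (none or 50 CPM), the block, the scaling, the number of members (45 or 180), z within library, thinning to 3000 UMIs, doublets, per-cell means, the fibroblast limit (2.5) and the Wt1 cells.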

Additional observations from a re-analysis of the deposited data

How the results depend on the processing

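Counts of called genes moved with the settings more than their directions did. Against 232 higher and 289 lower, no filter on low values gave 100 and 95, median ratio scaling 147 and 163, z-scores within each library 116 and 109, cells thinned to 3000 UMIs 76 and 98, a fibroblast limit of 2.5 154 and 162, and no library block 0 and 0 (lowest adjusted p 0.212). Taking 45 members gave 142 higher, and a minimum of 50 CPM gave 180 lower. The cause was not tested. Of the 521 calls, 513 of the 516 tested without the Wt1 cells kept their direction, as did 513 of 516 at the fibroblast limit of 2.5, 515 of 518 with 180 members, 516 of 521 after thinning, 520 of 521 with 45 members or z within library, and all those tested under the other alternatives (342 at a minimum of 50 CPM). Thinning had 174 calls, of which 146 were among the 521. The 86 called genes picked by the fixed naming criteria had 1 direction in both libraries, which some of those criteria require. Of these, 77 were called without the Wt1 cell. For the Hsd11b1 and Ccl11 set, the counts of genes at least 2-fold higher and lower in both libraries were 99 and 78 with a pseudocount of 20 CPM and 105 and 76 at a minimum of 50 CPM. For the Inmt, Osr1 and Rspo1 set they were 94 and 79, and 93 and 64. The share of members was 13.1% in Heart1 and 16.3% in Heart2 with 180 members, and 4.15% in Heart2 with 45, as the fixed number sets it. Among called list genes named outside those criteria, Tagln (log2 difference 0.98) was at -1.61 without the Wt1 cells and at -1.68 with the fibroblast limit of 2.5. Cilp (-1.80), also named outside them, went opposite ways, at 0.23 in Heart2 alone and -3.84 in Heart1 alone. No other sign change was found among the called list genes that the text names. Without the Wt1 cell, differences of called genes that were low in members deepened for Fmod (-1.45 with it, -2.39 without), Eln (-0.88, -1.48) and Aldh1a1 (-0.73, -1.28). With 11 members in Heart1, 3 UMIs correspond to 19.9 CPM there, against 3.56 CPM in Heart2. No fit without 1 of the libraries was possible, because 1 library leaves no residual degree of freedom; values per library stand in its place.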
